A study of Mus musculus with 2 samples.

Results

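The cells described here are the basal myoepithelial cells within a library of total mammary epithelium. A cell was taken as basal when its counts of Krt5, Krt14 and Acta2 summed to 10 or more and its counts of Krt8, Krt18 and Krt19 summed to less than 8. This gate held 1070 of 3302 cells of the library, a share of 32.4% (exact binomial 95% interval 30.8 to 34.0%), among 8073 cells in the whole series. Of the other 2232 cells, 1869 passed the luminal keratin threshold alone, 236 passed both thresholds and 127 passed neither.

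Myoepithelial cells form the outer layer of the mammary duct, between the luminal cells and the basement membrane. They carry the keratins of stratified epithelia together with a smooth-muscle-like contractile apparatus, and they contract in response to oxytocin to eject milk. They also lay down basement membrane, are anchored to it through integrins and hemidesmosomes, and are maintained by the transcription factor p63.

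Total epithelium (Lin- CD24+) came from 4 pooled mice of the inbred strain FVB/NJ, which were adult females aged 10 weeks. Basal cells sorted from such mice (Lin- CD29hi CD24+) made the other library, and both were captured by the 10X Genomics Chromium droplet method without treatment. The Lin- gate removes cells with blood and endothelial surface proteins but has no marker of pericytes or smooth muscle. Whether the libraries had mice in common is not given in the sources used here. There was 1 library per sort, so the spread between mice is unknown and no difference has a replicate check. Intervals cover counting error only, and no p-value is given.

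The gated basal cells held 2043614 counts, with 802 to 8220 per cell and a median of 1712.5, against a median of 3042 in the luminal keratin cells. The sorted basal library held 4771 cells with a median of 487 counts. Levels are therefore given as CPM, the counts of a gene over the summed counts of a group, scaled to 1e6. Mitochondrial genes took 0.355% of the counts in the basal cells and 0.265% in the luminal keratin cells. Ribosomal protein genes took 9.003% and 10.4%. The libraries shared 28 cell barcodes, 6 of them in gated basal cells. Doublets were not called or removed.

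The cells were chosen by their counts of these genes, so the gate values are a description and not a finding. The basal sum ranged from 10 to 211 with a median of 50, made up of a median of 29.5 counts of Acta2 (smooth muscle actin), 15 of Krt14 and 1 of Krt5. The 3 genes lie at chr19:34241090-34255590, chr11:100203162-100207548 and chr15:101707070-101712898 (GRCm38, GENCODE M21). At the basal threshold, 38 cells with sums of 10 to 14 held 2124 CPM of Myl9 and 2632 CPM of Krt17. The 28 cells just outside with sums of 5 to 9 held 2545 and 988 CPM. No count of Krt5 or Krt14 was found in 7 of the 38 cells and in 11 of the 28, so these levels mix cells with and without basal keratins. At the luminal threshold, 107 cells with 6 or 7 luminal keratin counts held 2717 CPM of Myl9 and 23.9 CPM of Cldn4, and 62 cells just outside with 8 or 9 counts held 3197 and 51.5 CPM.

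**Figure D1:**
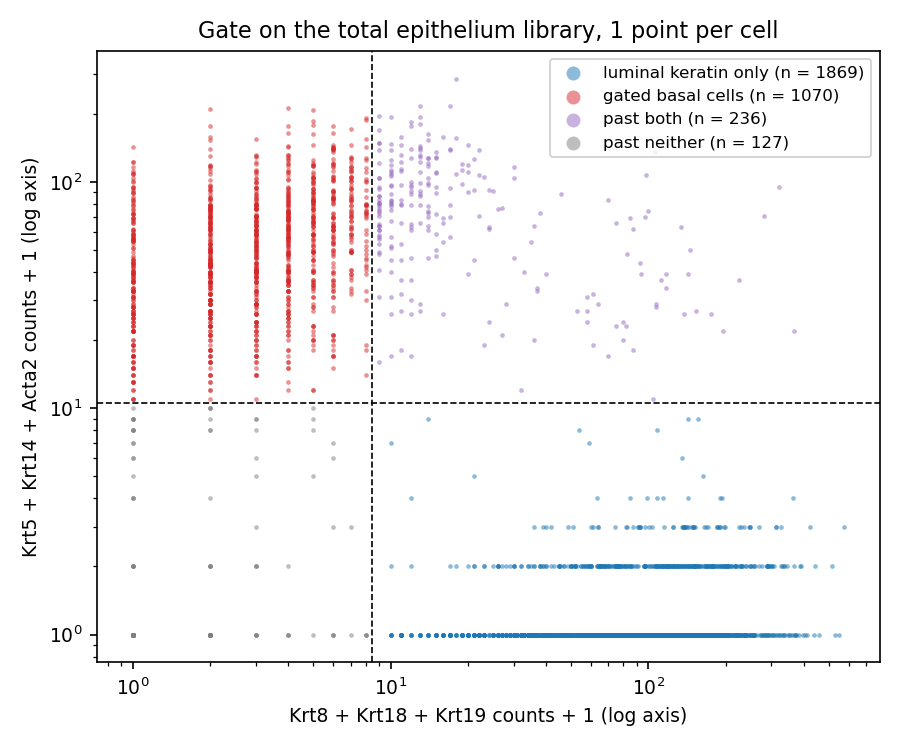
Counts of the basal genes (vertical, plus 1, log axis) against counts of the luminal keratins (horizontal, plus 1, log axis), 1 point per cell of the total epithelium library, with the thresholds as dashed lines. The 1070 gated basal cells fill the upper left, the 1869 luminal keratin cells lie below 9 basal counts, and the 236 cells past both thresholds run on to the right from the basal cells.

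The cells past both thresholds bear on every comparison with the rest of the library. Of these 236 cells, 147 had only 8 to 15 luminal keratin counts, and they held 3258 CPM of Myl9, 706 CPM of Trf and 39.7 CPM of Cldn4. The 42 cells with 40 or more luminal keratin counts held 941 CPM of Myl9, 15738 CPM of Trf and 1237 CPM of Cldn4, with a median of 4842.5 counts per cell. Together the 236 cells held 92.3% of the Myl9 counts and 93.2% of the Cxcl14 counts found outside the gate. For such genes the level over all other cells came mostly from these 236 cells, so for many of them the level in the luminal keratin cells is given beside it. Where only the level in the other cells is given, it includes these 236 cells.

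Some of the gated cells went against the label. In 31 of the 1070 cells no count of Krt5 or Krt14 was found, and they passed the gate on Acta2 alone. Of these 31 cells, 24 carried 2 or more counts of an 11-gene pericyte and vascular smooth muscle list (77.4%, exact interval 58.9 to 90.4%), as did 1 of 38 cells with 1 to 2 keratin counts, 0 of 72 with 3 to 5 (upper limit 4.99%), and 6 of 929 with 6 or more. The summed level per keratin-free cell had a median of 6 counts and a highest of 20. Of the 182 list counts in these 31 cells, 60 were of Ndufa4l2, 43 of Gm13889 and 35 of Mustn1. Rergl gave 16 counts and Notch3 gave 9. The rest were near the floor, with 6 counts each of Rgs5 and Pdgfrb, 3 each of Cspg4 and Higd1b, 1 of Abcc9 and 0 of Kcnj8. The list adds Ndufa4l2, Gm13889, Mustn1 and Rergl to its defining markers, and most of the counts came from these additions. It was chosen with earlier results of these data known, so the 77.4% is a description and not a test. Gm13889 was also at 71.5 CPM in the luminal keratin cells, against 762 CPM in the keratin-free cells.

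The contractile list summed to 28167 CPM in the keratin-free cells and 27598 CPM in the 1039 keratin-bearing cells, but its genes differed in direction. Myl9, a regulatory myosin light chain, was at 7108 CPM in the keratin-free cells and 2694 CPM in the keratin-bearing cells, Tagln at 5087 and 5492 CPM, and Cnn1 at 744 and 3586 CPM. Of the 63 counts in gated cells of Ndufa4l2, a mitochondrial protein gene known from pericytes, 60 were in the keratin-free cells. All 33 counts of Olfr558 in gated cells were there, in 15 of the 31 cells. Outside the gate, the cells past neither threshold held 210 CPM of Ndufa4l2 and 31.3 CPM of Olfr558. Sparcl1, a secreted matricellular protein, was at 3687 CPM against 41.8 CPM, Rergl at 284 against 0.503 CPM and Notch3 at 160 against 1.01 CPM. In the other direction, Krt17 was at 337 CPM against 6059 CPM and Sfn (the epithelial 14-3-3 protein) at 1276 against 6643 CPM. Trp63, the gene of p63, had 0 of its 170 counts in gated cells in the keratin-free cells. Oxtr, the oxytocin receptor, had 1 count in the keratin-free cells and 416 in the keratin-bearing cells. These contrasts were looked up after the cells had been set apart. Endothelial and immune lists gave 1 count each over the 31 cells. The adipocyte list gave 35 counts in 10 cells, of which 32 were of Fabp4, the fibroblast list 18 counts in 10 cells and the luminal progenitor list 92 counts in 23 cells.

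**Figure D2:**
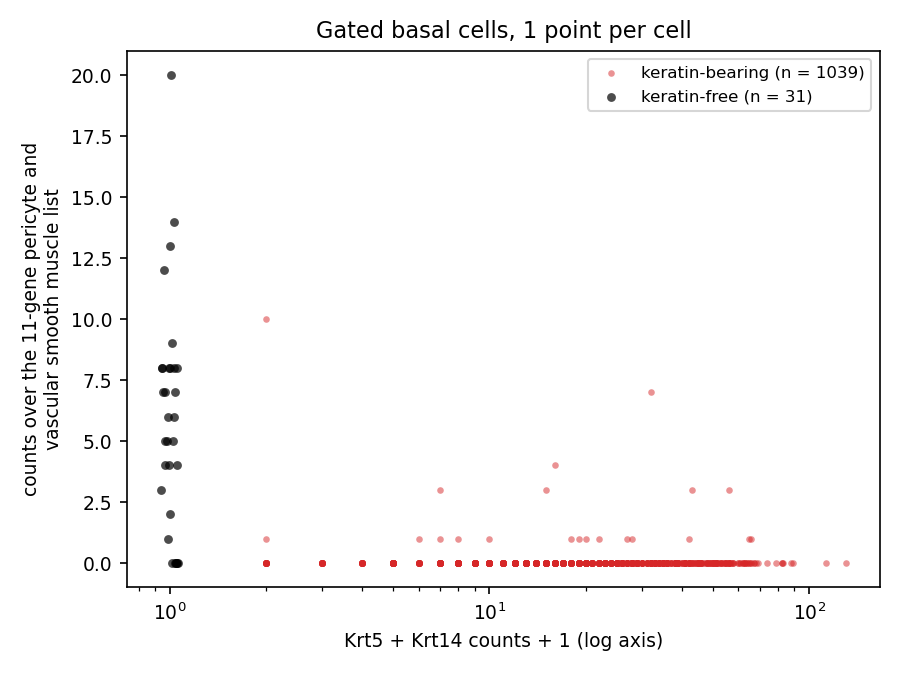
Counts over the 11-gene pericyte and vascular smooth muscle list (vertical) against Krt5 and Krt14 counts plus 1 (horizontal, log axis) in the 1070 gated basal cells, 1 point per cell, with the keratin-free cells spread sideways around their value. The 31 keratin-free cells (black) reach 20 counts of the list, and most of the 1039 keratin-bearing cells (red) lie at 0.

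Of 7280 genes with 100 or more counts over the library, gate genes left out, 889 were at least 2-fold higher in the gated basal cells than in the other cells (12.2%) and 1200 at least 2-fold lower (16.5%). The median log2 ratio over all genes was -0.05. Against the luminal keratin cells alone, 1049 genes were at least 2-fold higher (14.4%) and 1256 lower (17.3%). Split by their own markers, the luminal keratin cells had 707 cells on the progenitor side and 1148 on the mature side, with 1341 genes higher (18.4%) and 963 lower (13.2%) in the basal cells than in the former, and 1239 higher (17%) and 1421 lower (19.5%) than in the latter. The cells past both thresholds were nearest, with 158 genes higher (2.19%) and 528 lower (7.31%). Lists of genes are described below by their counts at the same size, to be read against these shares. Without the 31 keratin-free cells, no list gained or lost more than 1 gene in either direction against the other cells.

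The contractile apparatus took 27613 CPM in the basal cells, 5122 CPM in the other cells and 2310 CPM in the luminal keratin cells. Of 25 genes of the list with enough counts, 23 were at least 2-fold higher than in the other cells and 1 lower, with a median log2 ratio of 2.52, and the counts were again 23 and 1 without the keratin-free cells. Myl9 was at 2816 CPM in the basal cells, 275 CPM in the other cells and 5.78 CPM in the luminal keratin cells (10.2-fold over the other cells, interval 9.72 to 10.8). Tagln, the actin-binding protein transgelin, was at 5481, 536 and 16.7 CPM. Cnn1, the actin-bound protein calponin, was at 3508, 356 and 11.7 CPM, and Myh11, the smooth muscle myosin heavy chain, at 649, 65.6 and 2.57 CPM. Over the luminal keratin cells these 4 genes were higher by 253-fold for Myh11 to 487-fold for Myl9. The exception was Des, the muscle intermediate filament desmin, at 24.96 CPM against 63.2 CPM in the other cells. The 127 cells past neither threshold held 1818 CPM of Des and 6516 CPM of Tpm1, and against the luminal keratin cells alone Des was 3.45-fold higher.

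The promoters of the contractile genes with the largest folds are shown because these genes were higher together, with Cxcl14, a chemokine at a like fold, for comparison. Tagln, Myh11 and Actg2 also ranked among them but had no entry in the promoter set used, so they are not shown and were not searched. Each run covers 250 bases before to 50 after the gene start, from RefSeq on GRCm38.p6, written 5′ to 3′ on the strand of the gene. Capitals mark a CArG box, the motif bound by serum response factor, searched on both strands.
Myl9 promoter, chr2:156775214-156775513, plus strand: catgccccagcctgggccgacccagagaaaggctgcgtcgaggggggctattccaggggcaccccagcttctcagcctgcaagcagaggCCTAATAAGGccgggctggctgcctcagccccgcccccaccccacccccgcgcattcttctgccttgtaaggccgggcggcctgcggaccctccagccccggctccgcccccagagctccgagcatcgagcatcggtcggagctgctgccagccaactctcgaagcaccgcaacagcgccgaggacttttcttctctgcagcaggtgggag
Cnn1 promoter, chr9:22099003-22099302, plus strand: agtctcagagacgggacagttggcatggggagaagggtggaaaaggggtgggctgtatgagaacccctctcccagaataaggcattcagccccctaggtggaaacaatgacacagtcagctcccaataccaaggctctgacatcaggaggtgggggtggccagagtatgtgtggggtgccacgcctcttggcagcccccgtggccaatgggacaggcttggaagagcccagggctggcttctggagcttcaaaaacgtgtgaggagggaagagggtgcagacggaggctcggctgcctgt
Mylk promoter, chr16:34784700-34784999, plus strand: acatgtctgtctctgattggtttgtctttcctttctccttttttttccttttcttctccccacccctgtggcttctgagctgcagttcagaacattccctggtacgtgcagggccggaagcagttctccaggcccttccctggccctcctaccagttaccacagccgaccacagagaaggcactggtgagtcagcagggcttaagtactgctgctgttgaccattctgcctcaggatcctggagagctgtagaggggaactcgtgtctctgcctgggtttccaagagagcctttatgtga
Smtn promoter, chr11:3539243-3539542, minus strand: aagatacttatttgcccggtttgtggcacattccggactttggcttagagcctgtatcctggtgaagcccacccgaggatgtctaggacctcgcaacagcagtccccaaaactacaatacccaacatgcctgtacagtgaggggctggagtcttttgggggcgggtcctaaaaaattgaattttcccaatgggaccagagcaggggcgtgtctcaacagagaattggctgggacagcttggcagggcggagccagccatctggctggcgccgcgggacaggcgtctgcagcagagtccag
Cxcl14 promoter, chr13:56296502-56296801, minus strand: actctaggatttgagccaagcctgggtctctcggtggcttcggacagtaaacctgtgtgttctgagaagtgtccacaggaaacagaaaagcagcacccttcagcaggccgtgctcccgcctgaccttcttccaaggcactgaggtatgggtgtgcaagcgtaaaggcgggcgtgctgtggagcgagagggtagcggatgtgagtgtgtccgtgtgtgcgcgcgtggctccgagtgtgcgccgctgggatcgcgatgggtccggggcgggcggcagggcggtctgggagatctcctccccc
The Myl9 promoter held 1 CArG box, starting 161 bases before the gene start, and the other 4 windows held none. Of all 32851 promoters in the table, 1.63% held 1, against 4 of the 30 promoters listed for the contractile genes (Cnn2, Myl6, Myl9 and Vcl). A match is a description of these letters and not of binding.

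Receptors and regulators of contraction were less uniform. Of 11 genes with enough counts, 4 were at least 2-fold higher and 2 lower, with a median log2 ratio of 0.70. Oxtr was at 204 CPM in the basal cells, 32.2 CPM in the other cells and 8.19 CPM in the luminal keratin cells (6.35-fold over the other cells, interval 5.39 to 7.49). After each cell was thinned to 800 counts, 13.1% of the basal cells and 0.589% of the luminal keratin cells had an Oxtr count (27.8% and 2.25% unthinned). Rgs4, an inhibitor of G-protein signalling, was at 36.2 against 4.32 CPM, but 50 of its 74 basal-cell counts lay in the keratin-free cells. Agtr1a, an angiotensin receptor, was 72.3-fold lower on 3 counts (interval 24.7 to 352).

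Regulators and targets of the serum response factor and YAP pathways were higher for 7 of 11 genes and lower for none, with a median log2 ratio of 1.12. Ctgf, a matricellular target of YAP, was at 540 CPM against 54.0 CPM in the other cells. Of the 7 higher genes, 3 were regulators (Srf, Yap1 and its partner Tead1) and 4 were targets. Yap1 itself was 2.76-fold higher (interval 2.16 to 3.53) and Srf 2.14-fold (1.51 to 3.02). Cyr61, the close relative of Ctgf, was at 880 CPM in the basal cells and 1018 CPM in the other cells.

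Basement membrane and matrix genes were higher for 21 of 24 and lower for 2, with a median log2 ratio of 2.47 over the other cells. The laminin chain Lama1 was at 57.7 CPM in the basal cells, 5.57 CPM in the other cells and 0.803 CPM in the luminal keratin cells. Collagen IV chains Col4a1 and Col4a2 were at 121 and 91.5 CPM, against 1.77 and 0.803 CPM in the luminal keratin cells. Sparc, a secreted collagen-binding protein, was at 1978 CPM and 7.96-fold over the other cells (interval 7.53 to 8.42). The laminin chain Lama5 was 2.49-fold lower in the basal cells (1.81 to 3.49). Fn1, fibronectin, was also lower than in the other cells, at 6.85 against 16.7 CPM, with 527 CPM in the cells past neither threshold and 0.321 CPM in the luminal keratin cells.

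Integrins and hemidesmosome genes were higher for 10 of 17 and lower for none, with a median log2 ratio of 1.38. Col17a1, the hemidesmosomal collagen, was at 106 CPM in the basal cells and 0.963 CPM in the luminal keratin cells. Itga6 was 4.28-fold over the other cells (interval 3.75 to 4.88) and Itgb1, whose product is the CD29 used to sort basal cells, 2.61-fold (2.40 to 2.84). Itgb4, the partner of Itga6 in hemidesmosomes, was at 9.30 against 11.6 CPM. Among other filament proteins, Krt17 was at 5901 CPM in the basal cells and 26.0 CPM in the luminal keratin cells, Krt15 at 291 and 16.1 CPM, and Krt7 was 47.7-fold lower than in the other cells (36.6 to 63.4).

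**Figure D3:**
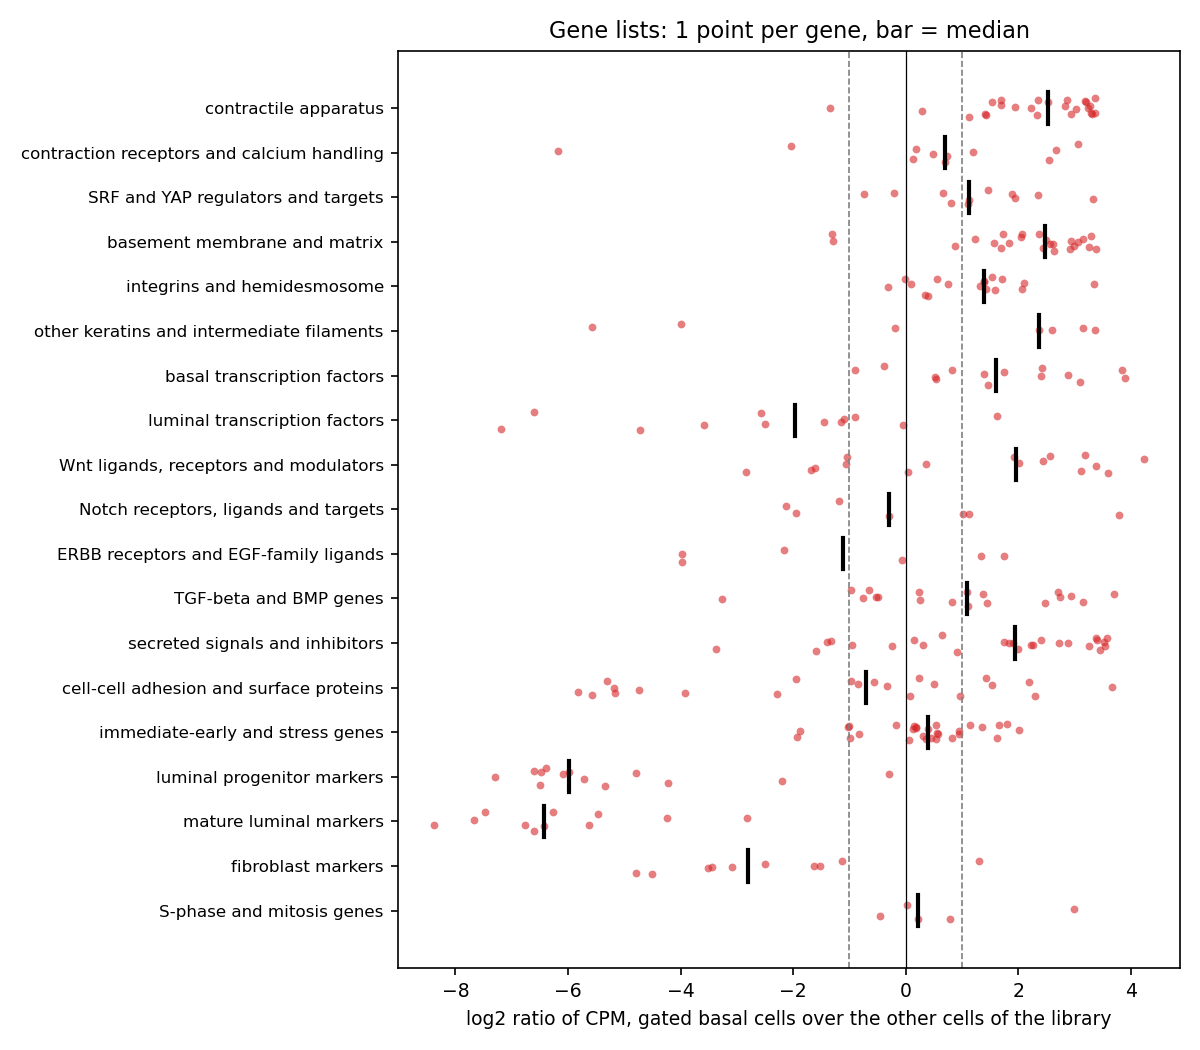
Log2 ratio of CPM between the gated basal cells and the other cells of the library (horizontal), 1 point per gene for each list with 5 or more genes tested, with the list median as a bar and the 2-fold limits as dashed lines. A gene at 0 in 1 group is drawn at the bound set by 3 counts. The medians run from 2.52 for the contractile apparatus to -6.43 for mature luminal markers.

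Basal transcription factors were higher for 9 of 14 genes and lower for none, with a median log2 ratio of 1.61. Trp63 was at 83.2 CPM in the basal cells, 5.57 CPM in the other cells and 0.482 CPM in the luminal keratin cells (14.9-fold over the other cells, interval 10.53 to 21.6). Id4, an inhibitor of helix-loop-helix factors, was at 86.1 against 5.99 CPM. Egr2 was at 413 against 55.8 CPM and Irx4 at 67.5 against 7.93 CPM. Trp63 was sparse in single cells, with a count in 6.36% of the basal cells (4.97 to 7.99%) and in 0 of 1869 luminal keratin cells (upper limit 0.197%) after thinning, and unthinned in 11.8% and 0.161%. Sox10 was at 15.2 against 19.8 CPM. Luminal transcription factors were lower for 9 of 12 genes with a median log2 ratio of -1.98, among them Ehf (145-fold, 26.0 to 5753, on 1 count), Elf5 (97.9-fold, 33.4 to 475, on 3 counts) and Foxa1 (26.4-fold, 8.93 to 129, on 3 counts).

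Genes of the Wnt pathway fell into both directions, with 9 of 16 at least 2-fold higher and 5 lower and a median log2 ratio of 1.97. Wif1, a secreted Wnt inhibitor, was at 769 CPM in the basal cells, 40.8 CPM in the other cells and 1.77 CPM in the luminal keratin cells (18.9-fold over the other cells, interval 16.6 to 21.4). Nkd1, a feedback inhibitor, was 12.1-fold higher, the ligand Wnt10a 10.4-fold and the receptor Fzd7 9.09-fold. The ligands Wnt5a and Wnt7b were lower, by 3.23-fold (2.35 to 4.54) and 7.11-fold (3.54 to 16.7). Wif1 was found in 36.4% of the thinned basal cells and in 0.0535% of the thinned luminal keratin cells (54.3% and 0.589% unthinned).

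In the Notch pathway the ligand Dll1 was higher and the receptors Notch1 and Notch3 lower. Dll1 was at 433 CPM in the basal cells, 31.2 CPM in the other cells and 4.34 CPM in the luminal keratin cells (13.9-fold over the other cells, interval 11.98 to 16.2). Notch1 was 4.34-fold lower (2.37 to 8.87), Notch3 3.85-fold lower (2.09 to 7.89, with 9 of its 11 counts in the keratin-free cells and 20.6-fold lower, 5.61 to 172, without them) and the target Hes1 2.26-fold lower (2.08 to 2.46). In all, 3 of 7 genes were higher and 3 lower, with a median log2 ratio of -0.29. Of the higher ones, Nrarp, a Notch target, was at 59.7 against 29.5 CPM, and without the keratin-free cells its log2 ratio was -0.04. Of 6 genes of ERBB receptors and their ligands, 2 were higher and 3 lower. Erbb3 had no count in the basal cells and was at least 15.6-fold lower, while Egfr was 3.36-fold higher (2.34 to 4.81).

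TGF-beta and BMP genes were higher for 10 of 19 and lower for 1, with a median log2 ratio of 1.09. The ligand Bmp7 was at 73.9 CPM in the basal cells, 5.71 CPM in the other cells and 0.482 CPM in the luminal keratin cells, and Fst, an activin antagonist, at 348, 39.1 and 13.8 CPM. Inhbb, an activin subunit, was 9.61-fold lower (4.99 to 21.2). Secreted factors were higher for 16 of 26 genes and lower for 4, with a median log2 ratio of 1.95. Apoe, apolipoprotein E, was at 13405 CPM in the basal cells, 1294 CPM in the other cells and 300.4 CPM in the luminal keratin cells. Cxcl14 was at 4718, 445 and 10.8 CPM, and the growth factor binding proteins Igfbp2 and Igfbp3 at 528 and 410 CPM, against 0.482 and 1.28 CPM in the luminal keratin cells. Cst3, a cysteine protease inhibitor, was 3.01-fold lower (2.84 to 3.20).

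The 15 genes with the largest folds over the other cells ran from Fam180a at 25.1-fold (16.9 to 38.7) to Pgf at 14.1-fold (11.2 to 17.8). After Fam180a came Egr4, Ism1, Wif1, Fmod, Elovl4, Egfl6, Speer4e, Trp63, Il17b, 1500015O10Rik, Id4, Rtn1 and Lmo1. Most were at low level, and the highest were 1500015O10Rik at 1535 CPM, Wif1 at 769 CPM and Il17b, a cytokine, at 555 CPM. This ranking is over all other cells, which include the cells past both thresholds, and it differs from that over the luminal keratin cells. Over the latter, the log2 ratio was 7.43 for Trp63, 7.48 for Id4 and 8.77 for Wif1. Igfbp2 and Myl9, which are not among the 15, were at 10.1 and 8.93. The largest folds lower rested on 5 or fewer counts in the basal cells. They were Dkkl1, Cited1, Tnnt3, Ctsr, Upk3a, Tspan1, Cldn8, Ido1, R3hdml and Plac8. Cited1, a cofactor known from hormone-sensing luminal cells, was 334-fold lower (143 to 1028). Tnnt3, skeletal muscle troponin, was at 4435 CPM in the cells past neither threshold and 8.35 CPM in the luminal keratin cells.

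Luminal genes were not all equally low. Of the luminal progenitor list 12 of 13 genes were at least 2-fold lower (median log2 ratio -5.98), and of the mature luminal list 11 of 11 (median -6.43). The milk protein gene Csn3 stood at 0.578% of its level in the luminal keratin cells, Ly6d at 0.503%, Cldn4 at 1.87% and Plet1 at 1.34%. Trf, transferrin, stood at 4.85%, Mfge8 at 19.97% and Lcn2, the iron-carrier protein lipocalin-2, at 78.6%. These are shares of a level pooled over both luminal sides. Lcn2 was at 1716 CPM in the basal cells, 5476 CPM on the progenitor side and 277 CPM on the mature side, with a count in 64.8% of the thinned basal cells (61.8 to 67.6%) and 39.8% of the thinned luminal keratin cells (82.1% and 45.6% unthinned). In the cells past neither threshold the Lcn2 share was 19.7% and the level 773 CPM. The part of free RNA in these levels was not tested. Of cell adhesion and surface genes, 9 of 22 were lower and 5 higher (median log2 ratio -0.70). Among the lower ones were Epcam (4.87-fold), Cdh1 (3.86-fold) and the tight junction gene Cldn7 (56.9-fold). The desmosome genes Perp (4.55-fold), Pkp1 (4.91-fold) and Dsp (2.68-fold) were higher, and the largest fold was that of Pdpn, podoplanin, at 246 against 19.3 CPM.

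**Figure D4:**
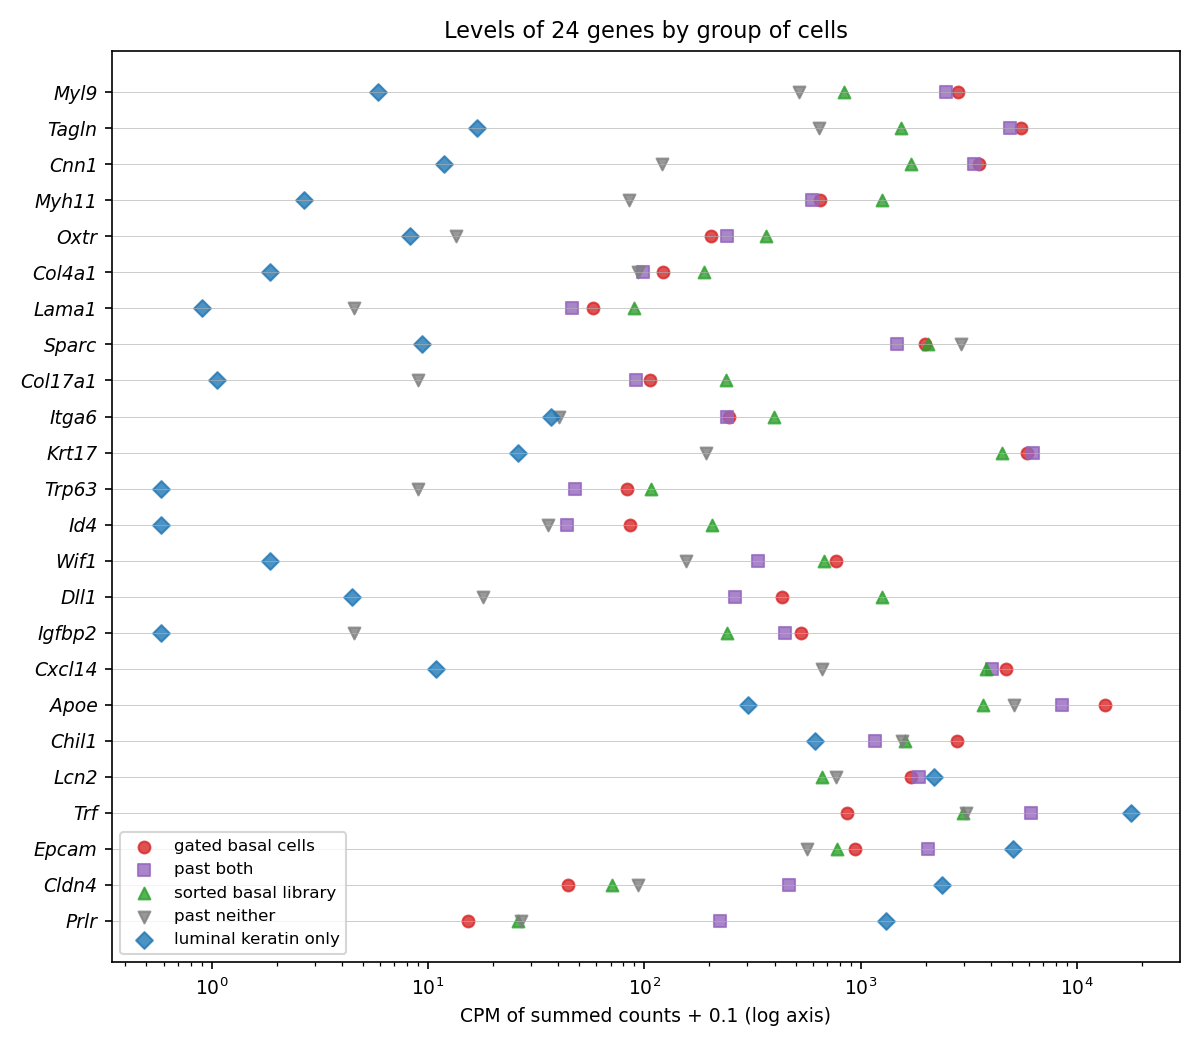
CPM plus 0.1 (horizontal, log axis) of 24 genes in the gated basal cells, the cells past both thresholds, the sorted basal library, the cells past neither threshold and the luminal keratin cells, 1 point per group. The basal genes lie to the right in the first 3 groups and far to the left in the luminal keratin cells, while Lcn2 is within 661 to 2183 CPM in all 5.

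Immediate-early and stress genes were mostly within 2-fold, with 6 of 29 higher, 4 lower and a median log2 ratio of 0.39. Socs3, a cytokine feedback inhibitor, was at 4640 CPM in the basal cells and 1144 CPM in the other cells. Junb was at 15429 against 7988 CPM and Fos at 8821 against 6427 CPM. Klf2 was 3.81-fold lower (3.56 to 4.08) and Jun 2.02-fold lower (1.96 to 2.09). Few basal cells held 5 or more counts of the S-phase and mitosis list: 6 of 1070 (0.561%, 0.206 to 1.22%), of which 1 was keratin-free. Among the luminal keratin cells 19 of 1869 did so (1.02%, 0.613 to 1.58%), in cells of unequal depth. At least 1 count of the list was found in 37.1% of the keratin-bearing cells and 38.6% of the luminal keratin cells, unthinned. Of 5 genes of that list with enough counts, 1 was at least 2-fold higher and none lower than in the other cells, with a median log2 ratio of 0.21. The higher gene was Rrm2, a subunit of ribonucleotide reductase, at 37.7 against 4.73 CPM.

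Marker genes of other cell types were also counted in the 1039 keratin-bearing cells. Fibroblast genes gave 958 counts, with at most 92 in a cell and 56 cells at 5 or more, and immune genes gave 100 counts from 6 of 9 genes, with Ptprc, Cd3e and Tyrobp at 0. Of these, 87 were of Cd74, a chaperone of MHC class II, which was 7.84-fold higher in the basal cells than in the other cells (5.32 to 11.8). Their part in the results was not tested. Fibroblast genes were lower than in the other cells for 9 of 10. Dcn, decorin, was at 399 CPM in the basal cells, 771 CPM in the luminal keratin cells and 5829 CPM in the cells past neither threshold. Against the luminal keratin cells alone, 5 of the 10 were higher and none lower.

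The basal cells did not form a uniform set. Among 2559 genes with 50 or more counts after thinning, the variance-to-mean ratio over the 1070 cells, which is 1 for pure sampling, had a median of 1.12 and was 2 or more for 76 genes. The highest was Slpi, a secreted protease inhibitor, at 8.37, followed by Chil1, a secreted chitinase-like protein, at 8.29, Fos at 7.85 and Krt17 at 7.18. Then came Sparcl1, Tsc22d1, Junb, Fgg, Pthlh, Ccl7, Ptx3 and Rrad. Chil1 had 0 counts in 609 of the thinned cells and 10 or more in 61, and those 61 cells held 41.0% of its counts. Slpi had 10 or more counts in 104 cells, which held 48.6% of its counts. Krt17 was at 0 in 261 cells and at 10 or more in 166. Without the keratin-free cells the ratio was 8.29 for Slpi, 8.22 for Chil1, 7.05 for Krt17 and 5.62 for Sparcl1, and 69 genes were at 2 or more.

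**Figure D5:**
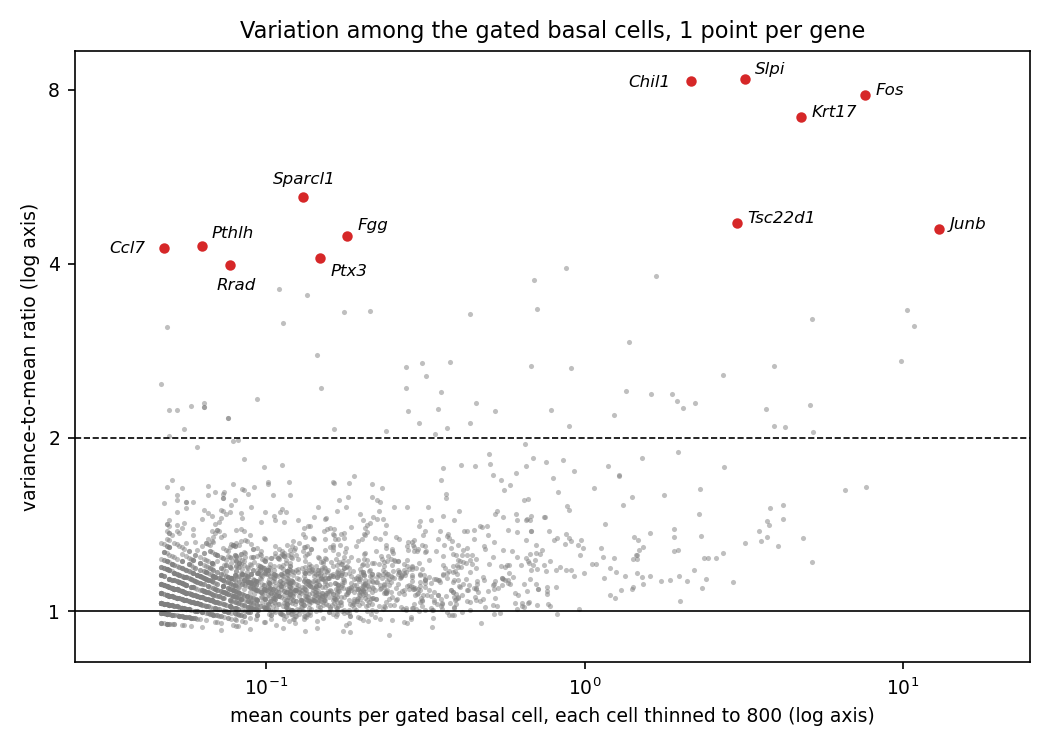
Variance-to-mean ratio (vertical, log axis) against mean count (horizontal, log axis) over the 1070 gated basal cells, each thinned to 800 counts, 1 point per gene, with the 12 highest genes in red. Slpi, Chil1, Fos and Krt17 lie between 7.18 and 8.37, and the median gene at 1.12.

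Chil1 counts ran against the contractile genes. The 61 cells with 10 or more thinned Chil1 counts held 11.95 counts of the contractile list per cell (exact Poisson interval 11.1 to 12.85), and the 609 cells at 0 held 24.5 (24.1 to 24.9). Tagln was at 2.33 against 4.84 counts per cell and Krt17 at 1.77 against 5.61. In the other direction Trf was at 2.21 against 0.33005 counts per cell, Fth1, a ferritin chain, at 9.02 against 4.09, and Apoe at 14.5 against 9.55. This split was chosen after the values were seen. Over all 1070 cells Chil1 and the contractile sum had a Pearson r of -0.36 (-0.37 without the keratin-free cells). The cells share 1 library and a fixed total of counts. Sparcl1 and Igfbp7 had an r of 0.72, which was 0.34 without the keratin-free cells.

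Levels were also read by depth among the basal cells. From the shallowest quartile (802 to 1324 counts) to the deepest (2276 to 8220 counts), the contractile list took 2.43% and 2.90% of the counts, basement membrane genes 0.532% and 0.632%, and immediate-early genes 5.79% and 4.39%. Slpi was at 4786 and 3020 CPM, Cxcl14 at 5354 and 4151 CPM and Apoe at 13134 and 12632 CPM. Over the 4 quartiles in order of depth, Chil1 was at 2243, 2952, 3307 and 2591 CPM.

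The sorted basal library, which the gate did not use, gave levels of the same genes in a separate sort, and sort, mice and library cannot be told apart. In that library 1737 of 4771 cells (36.4%) passed the gate at its lower depth, and all cells were used. The comparison therefore sets cells chosen for high counts of Krt5, Krt14 and Acta2 against cells not chosen by them. These 3 genes took 2.98% of the counts in the gated basal cells, 1.69% in the sorted library and 2.42% in its cells past the gate. The part of this choice in the folds below was not tested. Of 5661 genes with 100 or more counts over both, 974 were at least 2-fold higher in the gated basal cells (17.2%) and 1577 lower (27.9%). With trimmed mean of M-values (TMM) scaling the split was 1394 and 666. Several marker genes were close, though they were picked and other genes of their lists were not. Cxcl14 was at 4718 and 3804 CPM, Krt17 at 5901 and 4512 CPM and Wif1 at 769 and 678 CPM. Sparc was at 1978 and 2040 CPM and Trp63 at 83.2 and 108 CPM. Of basal transcription factors, 6 of 13 were at least 2-fold lower in the gated basal cells and 0 higher (1 and 0 with TMM scaling). Of Wnt genes, 7 of 15 were lower and 0 higher (1 and 0 with TMM scaling).

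Of the contractile list, 7 of 26 genes were at least 2-fold higher in the gated basal cells and 6 lower (7 and 3 with TMM scaling), shares that lay near those of all genes when TMM scaling was used. Myl9 was at 2816 CPM and at 834 CPM in the sorted basal library (3.38-fold, interval 3.21 to 3.55), and Tagln was 3.56-fold higher, Tpm2 3.54-fold and Myl12a 4.22-fold. Actn1, an actin cross-linker, was at 576 and 1784 CPM, 3.09-fold lower in the gated basal cells (2.90 to 3.30), and Smtn was 2.81-fold lower. Apoe was at 13405 and 3678 CPM. Dll1 was at 433 and 1252 CPM and Socs3 at 4640 and 11753 CPM. With TMM scaling, the gated basal cells were lower by 2.31-fold for Actn1, 2.09-fold for Smtn, 2.16-fold for Dll1 and 1.89-fold for Socs3. They were then higher by 4.53-fold for Myl9 and 4.89-fold for Apoe. Basement membrane genes were at least 2-fold lower for 10 of 25 and higher for none (5 and none with TMM scaling). After thinning to 300 counts, which left out 882 of the 4771 sorted cells, Myl9 was found in 52.1% of the gated basal cells (49.0 to 55.1%) and 16.2% of the sorted cells (15.1 to 17.4%), and Dll1 in 12.6% (10.7 to 14.8%) and 25.05% (23.7 to 26.4%). Unthinned, Myl9 was found in 92.0% and 23.6% and Dll1 in 42.7% and 33.3%.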

How the data were processed

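Counts from 2 droplet libraries, 1 per sort, were analysed. The authors deposited raw counts of unique molecules per gene and cell as whole numbers, without normalization. The submitters' processing notes name Cell Ranger 1.2.1 and mm10. Every deposited cell was used, with 9227651 counts over 3302 cells of total epithelium and 2488704 over 4771 sorted basal cells. Members, gene lists and naming rules were chosen with earlier results of these data known. Counts were summed over the cells of a group and scaled to CPM. Genes with 100 or more counts were kept, and a 2-fold ratio was the rule of size. Intervals are exact 95% binomial or conditional Poisson. A group at 0 was set to 3 counts, as a bound. Named were the genes with the largest folds in each direction, up to 8 a list, then 15 higher, 10 lower and the 12 most variable, and further list genes were picked after their values were seen. A symbol held by more than 1 identifier was left out of list counts. Alternative gates, comparison cells, scalings, count filters and thinnings were run. Cells were thinned at random without replacement, for shares and variation. Positions came from GENCODE M21, which held 487 of 488 named identifiers. Python 3.11.15, numpy 2.4.6, scipy 1.17.1 and edgeR 4.0.16 (for TMM factors only) were used. The code was tested on simulated data.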

Additional observations from a re-analysis of the deposited data

How the results depend on the processing

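The gate set the number of cells more than the number of genes. The 1070 cells became 968 with a basal sum of 20 or more, 747 with luminal keratins under 4 and 1217 with luminal keratins under 16. The filter on low counts moved the genes at least 2-fold higher from 889 to 2138 at 10 or more counts, 158 at 1000 or more and 2651 with no filter beyond 1 count, and those lower from 1200 to 2194, 242 and 2216, since it sets how many genes are tested. The genes over 2-fold apart from the sorted basal library went from 2551 to 306 at 1000 or more counts. The share of basal cells with a Myl9 count was 80.0% thinned and 92.0% not thinned. TMM scaling moved the median log2 ratio of all genes from -0.05 to -0.15. Other gates, comparison cells, scalings, averaging and thinning kept both gene counts within 1.5 times. Of the list medians, ERBB genes reached 0.64 at 1000 or more counts, fibroblast markers 0.94 against luminal keratin cells and pericyte markers 0.64 with 10 or more counts and with no filter beyond 1 count. Log2 ratios were followed through these settings for 126 named genes. Of these, Des became 1.79 and Fn1 4.41 against luminal keratin cells, since cells past neither threshold then drop out. List genes that were not followed changed direction there too, such as Igfbp6 from -1.40 to 3.32 and Col1a2 from -1.62 to 3.61. Without keratin-free cells, Ndufa4l2 became -2.29, Rergl -0.15, Nrarp -0.041 and Olfr558, then at 0 counts, a bound of -0.020. The cause was not tested otherwise. The settings for shares and variation were chosen after seeing the data. No paired analysis was possible because each sort had 1 library, and no replicate could be left out. Depth limits genes with 5 or fewer counts in the basal cells, whose intervals are wide.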
